A study of Triticum aestivum with 3 samples.

Results

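TaSPL6-D peaks that recurred in both CUT&Tag replicates, lay at no mock peak and stood apart from one another numbered 1377 on chromosomes 1B to 7B of bread wheat (Triticum aestivum). Peaks of the replicates that overlapped by 1 bp or more were merged into 13654 regions over the whole series, of which 7403 held a peak of each replicate and 5957 of these held none of the mock. From the 5957 the regions on the B chromosomes were taken, and a region was dropped when its midpoint lay within 10 kb of that of another. The 1377 isolated B regions were 33% of the 4175 merged regions on these chromosomes. The same steps gave 1210 isolated regions on the A chromosomes, 33% of the merged regions there, and 1107 on the D chromosomes, 35.1%. The regions were chosen by the peak calls of all 3 libraries, so their number, height and fold enrichment are given as descriptions without a test.

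The libraries came from protoplasts of digested wheat seedlings, transformed in PEG solution, and TaSPL6-D is the protein whose targets were sought. In CUT&Tag an antibody brings a transposase to the bound chromatin, and the fragments it cuts and tags are sequenced. The antibody was anti-GFP or control IgG, per the labels, which do not say which library had which, name the construct, or say what the mock received, which they call both mock and input. There were 2 TaSPL6-D CUT&Tag replicates and 1 mock, and whether the replicates were separate preparations is not stated, so their spread may be technical. Transformed protoplasts hold the introduced protein for a short time and lack their walls and tissue. With 2 libraries against 1 no permutation test over samples can reach a p under 0.05, so shares carry Wilson 95% intervals and differences of shares carry Newcombe 95% intervals. These cover counting error over regions taken as independent, not the spread between libraries.

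SBP-box proteins (SPL in plant gene names) are plant transcription factors whose zinc-binding domain recognises DNA with a GTAC core. Many of their transcripts are cleaved or held back by the microRNA miR156, and in Arabidopsis and rice members of the family govern phase change, flowering and inflorescence branching. The genome of bread wheat is made of an A, a B and a D subgenome, so most genes have a counterpart, or homoeologue, on the matching chromosome of each. Genes crowd toward the chromosome ends, and long stretches of repeats with few genes lie around the centromeres.

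B chromosomes held 3908 of the 12848 peaks of replicate 1, 2494 of the 8401 peaks of replicate 2 and 397 of the 1754 mock peaks. Fold enrichment is the authors' ratio of fragments at a summit to the local background, and both quantities were solved from the deposited fold and −log10 p. By the steps in which the background rises, replicate 2 had 0.716 and the mock 0.450 of the depth of replicate 1. The height of a region is its number of fragments at the summit.

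Isolated B regions were narrow and mostly low. Their median width was 318 bp (quartiles 237 to 461 bp, range 161 to 1679 bp). The median height was 11 fragments in replicate 1 (quartiles 9 to 17) and 10 fragments in replicate 2 (quartiles 8 to 13). Median fold enrichment was 6.4 in replicate 1 (quartiles 5.48 to 8.0) and 6.24 in replicate 2 (quartiles 5.37 to 7.52). Most calls therefore rested on few fragments in each library. A single peak of each replicate made up the region in all but 27 cases.

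For most regions the summits of the replicates lay close together. They were a median of 10 bp apart (upper quartile 54 bp, largest distance 1013 bp), and 1014 of 1377 pairs (73.6%) were within 50 bp. Regions were kept only where peaks of both replicates merged, and their median width was 318 bp. This choice itself limits the distance between summits, so the distances are a description and no test of agreement. Across the 1377 regions, which were chosen for having a peak in both libraries, Spearman's rho was 0.868 for fragments and 0.821 for fold, as a description. Classes by replicate 1 height are picked on a value that enters the ratio of the replicates, so these ratios are no test of agreement. Among the 193 regions of 25 or more fragments in replicate 1 the median ratio of replicate 2 to replicate 1 fragments was 0.64, beside a ratio of depths of 0.716. Among the 440 regions of 9 or fewer fragments the ratio was 1, where both lists have their calling threshold. The plot of heights in both replicates shows both ends of this range.

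**Figure D1:**
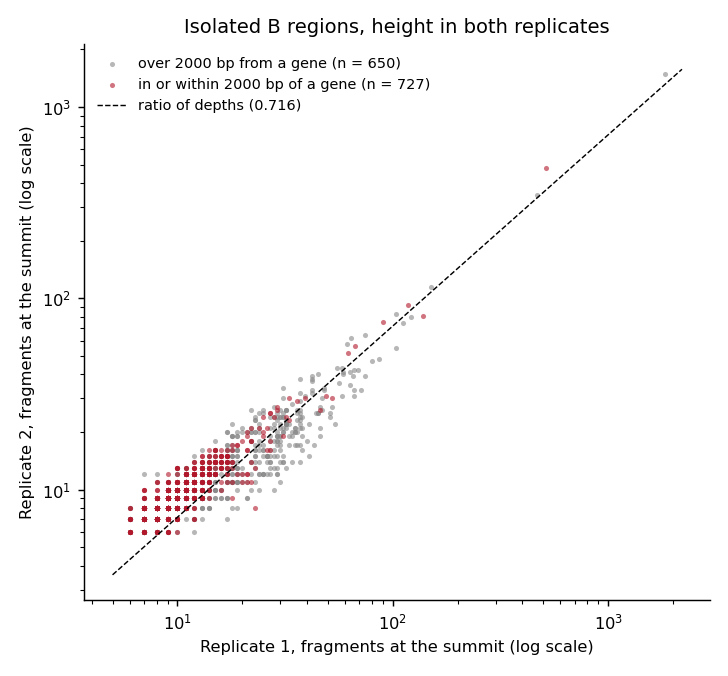
Fragments at the summit in replicate 1 (x axis) and replicate 2 (y axis) for the 1377 isolated B regions, both on log scales. Red points are the 727 regions in or within 2000 bp of a protein-coding gene, grey points the 650 farther away, and the dashed line is the ratio of depths of 0.716. Most points lie under 25 fragments, red points thin out above that height, and the region on 7B with 1833 and 1481 fragments stands at the far end.

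The leading regions lay mainly away from genes. The region of highest fold was on 7B at chr7B:404155263-404155434, 172 bp wide, with 1833 fragments in replicate 1 and 1481 in replicate 2. Its folds were 54.9 and 51.7, its local background was 50.4 and 56.4 times the lowest of each list, and the nearest protein-coding gene was 31.2 kb away. The next, on 1B at chr1B:679772779-679772956, was 178 bp wide and had 468 and 347 fragments and folds of 42 and 41.6. These regions combined a narrow summit with a high local background in both replicates. Others reached like ranks on a low background. The region chr6B:362129880-362130068 had 61 and 58 fragments, folds of 29.4 and 28.2, and the nearest isolated B region was 10071 kb away. On 7B, chr7B:457325043-457325300 had 58 and 43 fragments and folds of 29.5 and 25.4.

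Regions far from any protein-coding gene filled much of the remaining top 10. On 1B, chr1B:389620548-389620727 had folds of 28.5 and 22.2 and lay 206 kb from the nearest gene. On 6B, chr6B:286973684-286974025 had folds of 28.8 and 21.1 at 185 kb. On 7B, chr7B:341268454-341268713 had folds of 28.5 and 20.8 at 170 kb. In the top 10, 3 had their summit in or within 2000 bp of a protein-coding gene, all on 1B. Over all 1377 regions the share at genes was 52.8%, beside 5.22% of B-chromosome bases. Of the top 100 by rank 12 lay at a gene, and of the lowest 100, 65. The leading regions of the chromosomes without a region in the top 10 were lower in rank. On 4B the leader was chr4B:233653932-233654349, with folds of 27.0 and 19.9. On 5B it was chr5B:146440650-146440830, with 28.1 and 19.7, and on 2B chr2B:33697908-33698321, with 21.5 and 23.7. On 3B it was chr3B:125886575-125886778, with 22.6 and 16.4, the only leader of a chromosome that lay in or within 2000 bp of a protein-coding gene, LOC123068946.

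Some tall regions on a high local background had low folds. The lowest-ranked region of all, chr4B:291498170-291498679, had 150 and 114 fragments but folds of 3.13 and 3.14, on a background 73.5 and 72.6 times the lowest. A mock peak lay 1.38 kb from its midpoint. A background of at least 10 times the lowest was found at 18 isolated B regions in replicate 1, and 12 of these had a mock peak within 10 kb although none overlapped one. Over all 1377 regions this held for 58 (4.21%). By height it was 2 of 440 regions of 9 or fewer fragments (0.455%, Wilson 0.125 to 1.64%), 7 of 517 at 10 to 14, 11 of 227 at 15 to 24, 24 of 155 at 25 to 49, and 14 of 38 regions of 50 or more (36.8%, Wilson 23.4 to 52.7%). The 58 regions had a median of 29 fragments in replicate 1, against 11 in the other 1319, and 8.62% of them lay at genes, against 54.7%. The part of mock signal in their height was not tested.

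The regions nearest to the 10 kb distance, 3 kept and 3 dropped, are too few to compare in fold. The kept region nearest to it was chr5B:660367417-660367660, at 10.2 kb, with folds of 4.80 and 4.91. Next came a kept pair on 1B at 11 kb, described with the genes, with replicate 1 folds of 31.5 and 19.1. Nearest among the dropped ones was chr2B:483064464-483064952, at 9.77 kb, with folds of 3.52 and 3.04. A pair of dropped regions on 1B at 9.66 kb had replicate 1 folds of 14 and 4.87.

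Isolated B regions were spread over all 7 chromosomes. They numbered 217 on 1B, 185 on 2B, 224 on 3B, 189 on 4B, 190 on 5B, 172 on 6B and 200 on 7B. Per 100 Mb the order was 1B with 31.0, 4B with 28.1, 5B with 26.6, 3B with 26.3, 7B with 26.2, 6B with 23.5 and 2B with 22.8. Per 1000 protein-coding genes 4B was highest with 48.2 and 1B next with 47.2, and 2B was again lowest with 30.8. The lowest and highest median fold of a chromosome were 6.08 and 6.67 in replicate 1 and 6.04 and 6.50 in replicate 2. The share of regions with 25 or more fragments in replicate 1 was lowest on 3B with 12.1% and highest on 7B with 16.5%. The longest stretch between neighbouring regions was 28.6 Mb, on 3B between 305289953 and 333843552, and the longest of the other chromosomes ran from 20.9 to 27.6 Mb.

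In all, B chromosomes held 26.2 isolated regions per 100 Mb, against 24.3 on A and 27.7 on D. Per 1000 protein-coding genes they held 39.2, against 36.5 on A and 32.8 on D, so the order to D turned, and by this measure B was above A in 4 of 7 groups and above D in 6 of 7. Per 100 Mb the difference was 1.91 to A (interval for counting error −0.037 to 3.86) and −1.43 to D (−3.57 to 0.707), and both intervals held 0. With lists cut to peaks with a −log10 q of 5 or more the difference to D was 1.25, so its direction turned. Within homoeologous groups and per 100 Mb the B chromosome was denser than A in 6 of 7 groups, group 2 being the exception, and denser than D in 2 of 7.

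**Figure D2:**
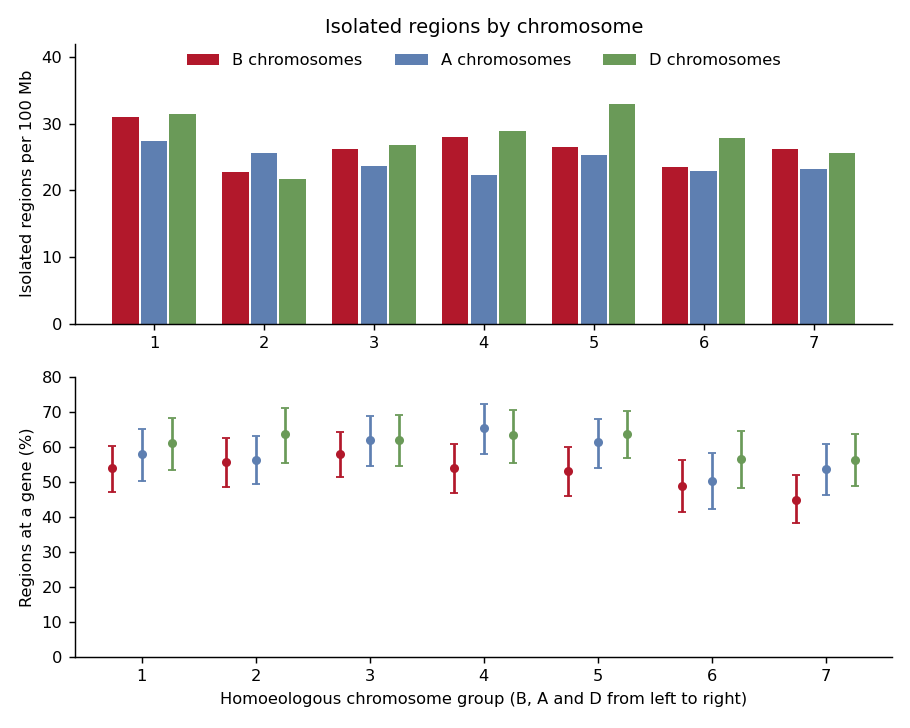
Isolated regions per 100 Mb (upper panel) and the share of them in or within 2000 bp of a protein-coding gene (lower panel, bars are Wilson 95% intervals) by homoeologous chromosome group, with B, A and D chromosomes in red, blue and green. The B share at genes is the lowest of its group in each of the 7 groups, from 45% on 7B to 58% on 3B.

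Gene positions were not used to choose the regions. They came from the RefSeq gene table of IWGSC CS RefSeq v2.1, and since the peak lists name no build, the join was checked on the values. Summits of 48.7% of the regions lay in a protein-coding gene or within 500 bp of one, and this fell to 32.3 and 33.2% when all summits were moved by 2000 bp forward and backward. A move of 1000000 bp gave 2.69 and 2.98%. On each of the 7 chromosomes the unmoved summits gave the highest share.

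Just over every other isolated B region lay at a gene. The summit was in a gene body for 555 regions (40.3%, Wilson 37.7 to 42.9%), beside 2.9% of B-chromosome bases. Another 115 lay within 500 bp of an edge, which makes 670 (48.7%) beside 3.52% of the bases, and 57 lay from 500 to 2000 bp. Together 727 regions lay in or within 2000 bp of a gene (52.8%, Wilson 50.2 to 55.4%), beside 5.22% of the bases, a ratio of 10.1. Summits of replicate 2 gave 727 as well. Of the rest, 139 lay 2 to 10 kb away, 219 from 10 to 50 kb, 201 from 50 to 200 kb and 91 farther still. The 397 mock peaks on B chromosomes had 47 at genes (11.8%, Wilson 9.02 to 15.4%). Of the 258 mock peaks over 10 kb from another mock peak, whose median height was 13 fragments, 32 lay at genes (12.4%, Wilson 8.92 to 17.0%). The mock had less depth, and the part of this in its lower gene share was not tested.

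Regions at genes were lower than those away from genes. Their median height was 10 fragments in replicate 1 and 9 in replicate 2, against 14 and 11 for the 650 regions away from genes. Median folds were 5.99 and 5.97 at genes, against 7.30 and 6.87 away from them. Of regions at genes 3.71% had 25 or more fragments in replicate 1, against 25.5% of those away, a difference of −21.8 points (Newcombe −25.5 to −18.2). Among the 141 regions with a fold of 10 or more in both replicates, 16 lay at genes. The median width was 324 bp at genes and 312.5 bp away, and the quartile ranges overlapped widely.

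The gene share was lower on B chromosomes than on the others. It was 52.8% on B, beside 5.22% of the bases, against 58.3% on A, beside 5.1%, and 61.1% on D, beside 6.38%. For the gene body alone it was 40.3% on B, against 43.1% on A, beside 2.83% of the bases, and 45.3% on D, beside 3.53%. Within 500 bp it was 48.7% on B, against 53.2% on A, beside 3.45%, and 55.5% on D, beside 4.31%. Within 2000 bp the difference was −5.55 points to A (Newcombe −9.36 to −1.71) and −8.27 points to D (−12.1 to −4.35), and B was lowest in 7 of 7 groups. Divided by the share of bases at genes, which is smaller on B than on D, the ratio was 10.1 on B, 11.5 on A and 9.57 on D. So the order to D turned, with B above D in 7 of 7 groups by the ratio and below A in 7 of 7.

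Tall regions were more frequent on B. In replicate 1, 14% of isolated B regions had 25 or more fragments, against 10.2% on A and 6.68% on D. The difference was 3.85 points to A (Newcombe 1.33 to 6.35) and 7.33 to D (4.95 to 9.68). In replicate 2 the shares were 5.88%, 4.38% and 3.34%, and the difference was 1.5 points to A (−0.22 to 3.21) and 2.54 to D (0.873 to 4.18). A mock peak lay within 10 kb of 24 of 155 B regions at 25 to 49 fragments in replicate 1. At 50 or more it was 14 of 38. The part of mock signal in the differences to A and D was not tested. Regions of 15 or more fragments had a lower gene share than lower ones on all subgenomes. On B the gene share by replicate 1 height was 67.7% at 9 or fewer fragments, 61.7% at 10 to 14, 36.6% at 15 to 24, 12.9% at 25 to 49 and 18.4% at 50 or more. By replicate 2 height it was 62.9%, 56.4%, 24.7% and 15.4% in the first 4 classes and 37.5% at 50 or more, where 6 of 16 regions lay at genes. Within the lowest class of replicate 1 it was 67.7% on B, 67.5% on A and 68.4% on D. In the next it was 61.7% on B, 64.1% on A and 69.4% on D, and at 15 to 24 fragments 36.6% on B, 47.7% on A and 38.1% on D. Weighted to the height classes of A the B share was 55.4%, beside 58.3% on A. Weighted to those of D it was 57.1%, beside 61.1% on D. Both weighted shares rest on replicate 1 heights and carry no interval. By these values both gaps were smaller at like heights, and B stayed the lower. By replicate 1 class B was below D throughout, but above A at 9 or fewer fragments and at 50 or more (18.4% against 14.3%). By replicate 2 class B was below A and D in the first 4 classes. At 50 or more it was above both, on few regions (37.5% against 22.2% on A and 33.3% on D).

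**Figure D3:**
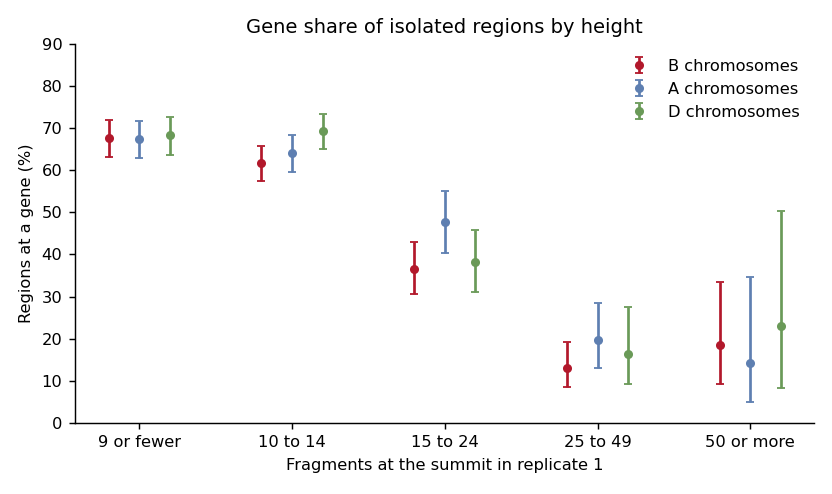
Share of isolated regions in or within 2000 bp of a protein-coding gene (y axis, bars are Wilson 95% intervals) by fragments at the summit in replicate 1 (x axis), for B, A and D chromosomes in red, blue and green. The share falls from 67.7% in the lowest class of B to 12.9% at 25 to 49 fragments, and the intervals of the subgenomes overlap in each class.

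Isolated B regions were fewer toward the chromosome ends than genes were. The outer 10% at each end of the B chromosomes held 22.8% of isolated regions (Wilson 20.7 to 25.1%) and 34.3% of protein-coding genes. On A the shares were 26.1% and 38.4%, and on D 26.4% and 36.5%. Regions at genes had 19.5% in the outer stretches, against 26.5% for regions away from genes, a difference of −6.93 points (Newcombe −11.4 to −2.48). With each chromosome cut into 10 equal parts, regions at genes numbered 1.5 per Mb of gene space in part 1, 4.26 in part 4, 3.39 in part 5, 3.40 in part 6 and 1.63 in part 10, where gene space is the bases in or within 2000 bp of a gene. Per 1000 genes they numbered 11.3 in part 1, 41.7 in part 4 and 12.2 in part 10. Regions away from genes ran the other way, with 0.166 per Mb of the remaining sequence in part 1, 0.0883 in part 4 and 0.193 in part 10. The outer share ranged over chromosomes from 17.4% on 3B to 30.8% on 2B. With an isolation distance of 5 kb the share over all B chromosomes was 23.2%, and among the 483 B regions that were not isolated it was 22.6%.

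**Figure D4:**
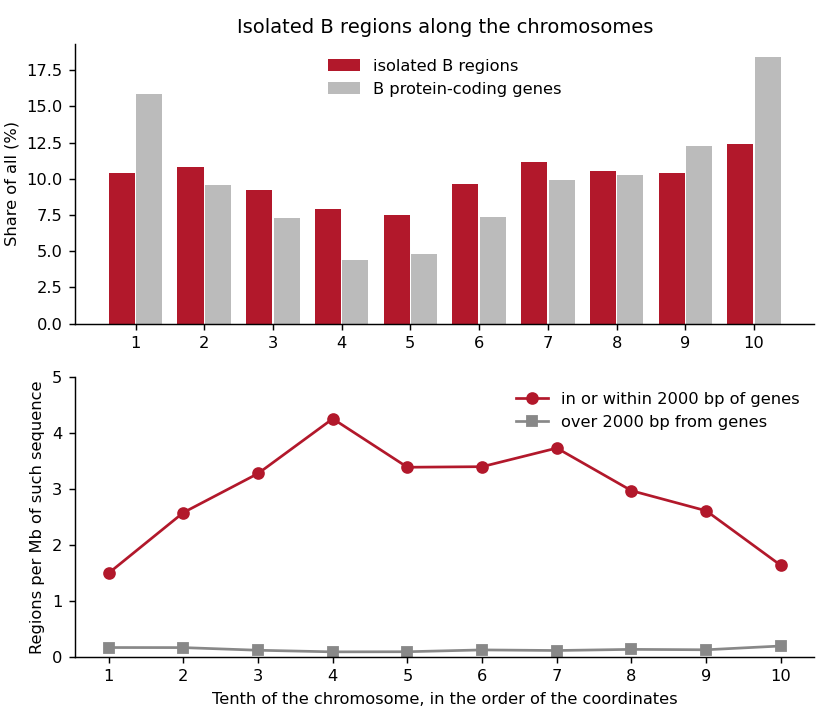
Isolated B regions along the 7 chromosomes, each divided into 10 equal parts. The upper panel gives the share of the 1377 regions (red) and of B protein-coding genes (grey) in each part, and the lower panel the regions per Mb of sequence in or within 2000 bp of genes (red) and of the remaining sequence (grey). The red line is lowest in the outermost parts, at 1.5 and 1.63, and highest in part 4, at 4.26.

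Long genes carried these regions more often than short ones. A summit lay inside 95 of the 995 B genes over 16 kb (9.55%, Wilson 7.87 to 11.5%) and inside 105 of the 2646 genes of 8 to 16 kb (3.97%, 3.29 to 4.78%). It lay inside 105 of the 11250 genes of 2 to 4 kb (0.933%, 0.772 to 1.13%). Per Mb of gene body the order was different, with 3.52 summits in genes over 16 kb, 3.71 at 8 to 16 kb, 3.18 at 2 to 4 kb and 11.5 in genes up to 1 kb. The median length of genes with a summit inside was 5603 bp, beside 5932 bp for B genes weighted by their bases. Counted per gene the longest genes led, and counted per Mb the shortest did.

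Summits inside long genes were densest over 2 kb from an edge. In genes over 8 kb the first 500 bp from either edge held 8 summits, or 2.2 per Mb, and the stretch from 1 to 2 kb held 10, or 1.37 per Mb. From 2 to 4 kb inside there were 66 summits (4.53 per Mb) and deeper than 4 kb there were 121 (4.17 per Mb). Genes of 4 kb or less, which have no bases over 2 kb from an edge, held 155 summits in the outer 500 bp (7.06 per Mb) and 19 from 1 to 2 kb (1.81 per Mb). On B the density was lower from 1 to 2 kb than at the edge in both length classes, in genes over 8 kb on few summits. In genes over 8 kb on A it was the other way, with 2.46 per Mb from 1 to 2 kb and 1.45 in the outer 500 bp. On D these were 1.51 and 2.12 per Mb. The replicate 2 summits gave 1.65 per Mb in the outer 500 bp of genes over 8 kb and 4.74 from 2 to 4 kb, and 6.97 per Mb in the outer 500 bp of genes of 4 kb or less. Genes over 8 kb on A had 1.45 and 5.0 per Mb in those stretches, and on D 2.12 and 3.55 per Mb. The mock on B had 1 and 1 summits there, too few to read. Since the gene table gives no strand, starts and ends of genes cannot be told apart.

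Middle and ends of the chromosomes differed most for long genes. In parts 4 to 6 of the B chromosomes 106 of 975 genes over 8 kb had a summit inside (10.9%, Wilson 9.07 to 13.0%), against 21 of 1070 such genes in the outer 10% at each end (1.96%, 1.29 to 2.98%). Their median lengths were 12502 bp in the middle and 11361 bp at the ends, and per Mb of body the summits numbered 6.82 and 1.24. For genes of 4 to 8 kb the shares were 1.74% in the middle (1.21 to 2.5%) and 0.752% at the ends (0.487 to 1.16%), with intervals apart. For genes of 2 to 4 kb the shares were 0.739% in the middle (0.432 to 1.26%) and 0.780% at the ends (0.547 to 1.11%), with overlapping intervals. Genes up to 2 kb had 1.37% in the middle (0.887 to 2.1%) and 0.851% at the ends (0.621 to 1.17%), also overlapping. A and D chromosomes had the same contrast in genes over 8 kb, with 12.4% in the middle and 1.78% at the ends on A, and 8.43% and 1.13% on D. The mock on B had 2 of 975 and 2 of 1070 such genes. The 210 regions inside genes over 8 kb had a median of 11 fragments in replicate 1 and 10 in replicate 2, and folds of 5.62 and 5.61. The 124 regions inside genes up to 2 kb had 10 and 10 fragments and folds of 5.94 and 6.11, so both kinds were of like height.

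**Figure D5:**
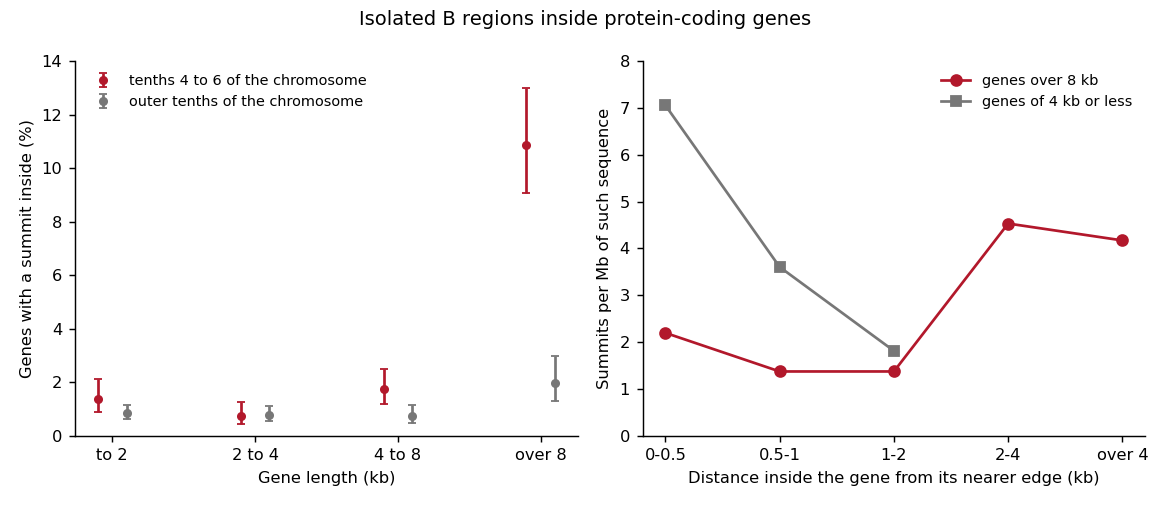
Left panel, share of B protein-coding genes with a summit of an isolated region inside (y axis, bars are Wilson 95% intervals) by gene length, in parts 4 to 6 of the chromosomes (red) and in the outer 10% at each end (grey). Right panel, summits per Mb by distance inside the gene from its nearer edge, in genes over 8 kb (red) and of 4 kb or less (grey); long genes in the chromosome middle stand out at 10.9%. Both lines fall over the first 2 kb, from 7.06 to 1.81 per Mb in short genes and from 2.2 to 1.37 in long ones, and beyond 2 kb, where short genes have no bases, long genes reach 4.53 per Mb.

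Outside genes the regions thinned out quickly. They numbered 4.31 per Mb within 250 bp of a block of genes, 2.69 per Mb from 250 to 500 bp, 1.01 per Mb from 500 to 1000 bp and 0.447 per Mb from 1000 to 2000 bp, and 0.0914 per Mb beyond 50 kb. Over 2000 bp from every annotated gene of any kind lay 544 regions (39.5%).

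The regions lay at 772 protein-coding genes of the B chromosomes, 2.2% of 35155. Of these genes 762 had 1 region and 10 had 2, and 54 regions lay at more than 1 gene. On A there were 757 such genes (2.28%) and on D 723 (2.14%). In all 10 genes with 2 regions both were inside the gene, and since members lie over 10 kb apart, only genes over 10 kb long could hold them so. In LOC123091924 on 4B, 46972 bp long, the regions had replicate 1 folds of 4.52 and 9.13. In LOC123111342 on 5B, 36292 bp long, they had 23 and 138 fragments in replicate 1, and the taller had a background 35.4 times the lowest and a mock peak 1.03 kb away.

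The gene ranked highest was LOC123147319 on 1B, with 118 and 92 fragments and folds of 31.5 and 28.7 inside a gene of 1152 bp. LOC123147329 had 67 and 56 fragments and folds of 26 and 23.6, and LOC123147346 had 49 and 31 fragments and folds of 19.1 and 13.7. These genes lie close together on 1B, with regions at chr1B:670560499-670560989, chr1B:670485399-670485803 and chr1B:670571506-670571907, and are 1152, 1059 and 1314 bp long. Also on 1B, LOC123081398 showed 90 and 75 fragments with folds of 29.4 and 27.6, and the summit was 752 bp from the gene. A gene for the methionine tRNA with anticodon CAU lay 827 bp from the same summit.

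On 6B, LOC123135728 had 62 and 52 fragments and folds of 24.6 and 21.7 inside the gene. LOC123140102, near the end of 6B, had folds of 25.1 and 18.5 at 1729 bp outside the gene. LOC123139023 had 512 and 480 fragments and folds of 19.7 and 19.7 over a region of 1011 bp, on a background 38.9 and 47.7 times the lowest. Apart from this gene no region at a B gene had over 138 fragments in replicate 1. LOC123068946 on 3B (22.6 and 16.4) and LOC123111736 on 5B (20.6 and 17.0) had their summits inside. LOC123039767 on 2B had folds of 17.0 and 12.7 at 526 bp outside.

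The remaining genes of the top 20 were lower. On 1B they were LOC123150272 (folds 14.2 and 13.1), LOC123087079 (16.2 and 11.2) and LOC123150264 (10.5 and 10.7). Others were LOC123140084 on 6B (13.4 and 11.4), LOC123043580 on 2B (10.3 and 10.7), LOC123092591 on 4B (10.1 and 10.4), LOC123092221 on 4B (10.6 and 9.62) and LOC123041210 on 2B (11.1 and 9.26). On 5B one region lay inside both LOC123110906 and LOC123110907, with folds of 10.6 and 9.99. Of the 20 genes 13 had the summit inside and 7 were on 1B. Counted by region, 555 of all 727 regions at genes had the summit inside and 117 were on 1B. The median length of the 20 genes was 1860.5 bp, against 4139 bp over all 772 genes. The rank is by fold, and by fragments the second tallest region at a gene, with 138, was in LOC123111342, 36292 bp long. The table gives none of the 20 genes a common name.

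Among the 772, which are 2.2% of all 35155 B protein-coding genes, were 2 of the 60 to which the table gives a common name. That count is too small to set apart from the share over all genes. LOC543074 (TPC1, which lets cations through a membrane) had 13 and 12 fragments and folds of 5.6 and 5.59 inside a gene of 22689 bp on 3B. LOC543227 (APT1, an adenine phosphoribosyltransferase, which salvages adenine) had 11 and 9 fragments and folds of 6.95 and 5.84 inside a gene of 6293 bp on 5B. The regions at genes had medians of 10 and 9 fragments and upper quartiles of 13 and 12, the heights found at LOC543074.

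The requirement for a peak of each replicate and the calling threshold set the number of regions. Peaks with a −log10 q of 5 or more gave 720, replicate 2 alone gave 1533 and replicate 1 alone gave 2284.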

How the data were processed

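Per the submitters' processing notes, bcl2fastq 2.17, Trimmomatic 0.39 and MACS2 2.2.7.1 were used. Aligner, build and call settings were not given in the sources used here. Each library has 1 peak list, as the authors deposited it. Its fold enrichment is a linear ratio, and its −log10 p and −log10 q are the authors' peak caller's values, with a lowest −log10 q of 1.31 in each deposited list. Fold and −log10 p together gave a whole number of fragments for 100% of peaks within a relative tolerance of 1e-04, assuming MACS2's pseudocount of 1. Peak files count from 0; coordinates are printed from 1. A region takes the values of its highest-fold peak in each list, and its replicate 1 summit for gene context. Unplaced sequence was left out. Chromosome length is the last annotated or called base. Base shares were counted exactly, not by random placement. Python 3.11.15, pandas 2.3.3 and scipy 1.17.1 were used, and the code returned every planted answer on simulated lists.

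The named regions were the 10 whose fold ranked highest by percentile, averaged over the replicates, the leader of each chromosome and the 3 on either side of the 10 kb distance, and the named genes were the 20 of highest rank and those with a common name. The members and lists were chosen with earlier results of these data known. The GTAC motif and the gene lists were not run, since sequence and product names were not used here. The lists name no build, so no gene coordinates are printed; distances and gene lengths rest on the join checked in the results.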

Additional observations from a re-analysis of the deposited data

How the results depend on the processing

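Of 92 values under 12 alternatives, 75 stayed within 1.5 times the main count or within the spread, and 17 moved. The spread was the interval of a share or difference, or the SD between the replicates' medians. Lists cut to peaks with a −log10 q of 5 or more gave 720 members (overlapping 648 of the 1377) and 13.7 per 100 Mb, with a median width of 350 bp, median folds of 7.91 and 7.50, a gene share of 37.9% and a difference in density to D of 1.25 per 100 Mb. Without either replicate there were 1533 to 2284 members, 29.2 to 43.5 per 100 Mb, with median widths of 235 to 245 bp and gene shares of 47.4 to 52.4%. The median fold was 5.91 from replicate 1 alone and 6.04 from replicate 2 alone. The gene share was 48.7% within 500 bp and 57.6% within 5000 bp, and the outer 5% at each end held 12.6%. The cause was not tested where no narrower window or shorter list shows it. The gene share stayed below that of A and D in each alternative for which the difference was computed, which leaves out the 5000 bp window and the midpoint in place of the summit. Leaving out the 58 members near a mock peak, an alternative chosen after seeing the data, gave 1319 members and a gene share of 54.7%. No paired analysis was possible because only 1 mock list was used here and no test compares groups. The GTAC window was not run. Most members had under 25 fragments, so height classes above that are small.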

Other observations

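Isolated B regions also lay near genes for RNAs that are not translated. Within 2000 bp of a tRNA gene lay 17 (1.23%, Wilson 0.772 to 1.97%), beside 0.0813% of the bases. For 4 of these the gene was for the methionine tRNA with anticodon CAU (23.5%, Wilson 9.56 to 47.3%). Their summits lay 570, 827, 1739 and 1756 bp from that gene. That anticodon, singled out after its values were seen, has 66 of the 1179 B tRNA genes (5.6%). Heights of the 17 regions spread widely. A region 1739 bp from a TRNAM-CAU gene on 2B had 64 and 62 fragments and folds of 21.5 and 23.7. Another, 229 bp from a TRNAK-UUU gene on 6B, had 7 and 7 fragments and folds of 4.53 and 5.17. Within 2000 bp of an rRNA gene lay 7 regions (0.508%, Wilson 0.246 to 1.05%), beside 0.0152% of the bases, with a median of 65 fragments in replicate 1. Of these, 3 stood on a background at least 26.5 times the lowest of replicate 1. They had 111, 103 and 122 fragments in replicate 1, and a mock peak lay 7.15, 3.19 and 1.8 kb away. The part of mock signal in their height was not tested. Long non-coding RNA genes had 56 regions near them (4.07%), beside 1.04% of the bases, and pseudogenes had 52 (3.78%), beside 1.30%. None of the 1377 regions lay near the 969 snoRNA genes (Wilson upper end 0.278%), which cover 0.036% of the bases with their surroundings. That share of bases lies within the interval, so no difference from it can be read.

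Members lie over 10 kb apart by the rule, which limits how many a window can hold, and no value for random placement was computed. Of 5252 windows of 1 Mb on the B chromosomes 4120 held no isolated region, 937 held 1, 156 held 2 and 39 held 3 or more. The fullest held 5 each. On 7B from 96000001 to 97000000, 4 of 5 lay at genes, with 8 to 13 fragments in replicate 1 and 7 to 10 in replicate 2. On 3B from 213000001 to 214000000, 1 of 5 lay at a gene, with 15 to 66 and 12 to 42 fragments. On 6B from 400000001 to 401000000, 1 of 5 did, with 7 to 22 and 7 to 19 fragments.

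The 1377 isolated B regions had a gene share of 52.8%, against 40.6% (Wilson 36.3 to 45.0%) in the 483 B regions within 10 kb of another. Their median heights were 11 and 10 fragments, against 21 and 17 in the 483, and their median background in replicate 1 was 0.749 fragments, against 2.26. The sets were split by whether another region lay within 10 kb. The part of this split in the difference in local background was not tested.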
